A study of Homo sapiens with 6 samples.

Results

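Nuclear-encoded respiratory chain genes were followed in A375 cells, an established human melanoma line, with and without forced expression of the long non-coding RNA SLNCR. They were the protein-coding genes of GENCODE release 29 (GRCh38) whose symbols begin with NDUFA, NDUFB, NDUFC, NDUFS, NDUFV, UQCR, COX4 to COX8 or ATP5, or are SDHA, SDHB, SDHC or SDHD. Of 99 such genes, 74 had a row among the 18318 genes of the count table. These were 39 complex I subunits, 8 complex I assembly factors (the NDUFAF genes, which the same letters bring in and which are kept apart here), 4 subunits of complex II, 9 of complex III and 14 of complex IV. The other 25 were the 21 ATP5 genes of complex V together with COX4I2, COX6A2, COX8C and the readthrough gene NDUFC2-KCTD14, and they were not analysed here. Complex V is therefore missing from the comparison of complexes. The 74 genes all passed the filter on low counts, with mean counts per library between 14.3 and 1892.3.

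The respiratory chain lies in the inner mitochondrial membrane and is the cell's machine for oxidative phosphorylation. Complex I takes electrons from NADH and complex II takes them from succinate, complex III passes them from ubiquinol to cytochrome c, and complex IV hands them to oxygen, while all of these but complex II pump protons. Mitochondrial DNA encodes the catalytic core of complexes I, III and IV in part, complex II is wholly nuclear-encoded, and nuclear genes supply the remaining subunits, whose proteins are imported. In melanoma, MITF and the coactivator PPARGC1A are known to drive this programme in a subset of tumours.

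In the SLNCR group, A375 cells were transfected with a pcDNA3.1 plasmid with a CAG promoter and a puromycin resistance gene that expressed wild type SLNCR, and in the Empty group they received the vector backbone alone. Both groups grew in 2 µg/mL puromycin for 48 h before RNA was taken, and the RNA, depleted of ribosomal RNA, was sequenced in paired reads of 150 bases. The study asked which genes SLNCR regulates in these cells. There were 3 libraries per group with 9287450 to 10822083 gene counts each. The labels call them biological replicates without saying how the cultures were kept apart, so the p-values measure the spread between these libraries, which may be technical. They come from a single line and from a whole selected culture, in which fewer cells expressing a gene and less RNA per cell cannot be told apart. LINC00673, the gene of SLNCR, had 1786, 2569 and 2040 counts in SLNCR libraries 1, 2 and 3, against 195, 194 and 193 counts in Empty libraries 1, 2 and 3.

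Some facts of all libraries bear on what follows. The labels give the cell type as epithelial, and the epithelial markers CDH1, KRT1 and DSG1 had at most 1 count per library on average, while KRT10 made up most of the 23.0 to 26.5 CPM (TMM-scaled counts relative to the size of a library) summed over 8 such markers in SLNCR libraries and of the 27.5 to 30.4 CPM in Empty libraries. MITF, at 90.4 to 104 CPM in SLNCR libraries and 76.5 to 93.2 CPM in Empty libraries, and SOX10 were detected, and the pigment genes PMEL and DCT were near 0. SLNCR library 3 stood apart for the respiratory chain. It held the lowest value of the 6 libraries for 43 of the 74 genes, and Empty library 1 held the highest for 40. Over 9 RNAs followed as a sign of RNA quality (MALAT1, NEAT1, RN7SK, RMRP and the like), the mean log2 difference from the Empty mean was -0.10, -0.01 and -0.27 in SLNCR libraries 1, 2 and 3, against 0.04, 0.01 and -0.05 in Empty libraries 1, 2 and 3. The lowest of these means was again that of SLNCR library 3, but the 9 RNAs did not move together in it. There RN7SL2 had 1058 CPM, against 3133, 2153 and 2333 CPM in Empty libraries 1, 2 and 3. RN7SL1 had 2207 CPM, against 4215, 3122 and 3383. RMRP, at 6381 CPM, lay inside the Empty range of 5058 to 6499 CPM, and RN7SK, at 16850, inside that of 15440 to 17240. The part of SLNCR library 3 in the results was not tested. Values without that library are given for several genes where this changed a call or moved a value by more than 1.5 times. This was not done for every such gene. The span of 23 of the 74 genes overlaps that of another gene with counts, and the strand setting of the counts is not given in the sources used here, so reads of such pairs may not be told apart. Among the genes described below these are NDUFB8 (with HIF1AN), NDUFA7 (RPS28), COX4I1 (EMC8), SDHD (TIMM8B), SDHC (CFAP126), UQCRQ (GDF9), NDUFAF3 (DALRD3), NDUFA1 (RNF113A) and NDUFA4L2 (SHMT2), on opposite strands, and NDUFA13 (YJEFN3), on the same strand.

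Levels were compared between genes per kilobase of the longest annotated transcript. The median gene stood at 28.3 CPM per kb for complex I subunits, 15.6 for assembly factors, 43.1 for complex II, 37.9 for complex III and 33.8 for complex IV in Empty libraries, against 8.97 for all tested genes. The medians of the subunit groups thus lay between percentiles 80.9 and 86.3 of tested genes, and that of the assembly factors at percentile 65.9. UQCRH, the hinge protein of complex III, was the most abundant of the 74 on this scale, at 268 ± 25.2 CPM per kb in SLNCR libraries and 299.5 ± 11.3 CPM per kb in Empty libraries (SD, n = 3 each). The small complex IV subunits followed. COX6B1 stood at 210.0 ± 2.16 CPM per kb in SLNCR libraries and 227 ± 5.05 in Empty libraries, and COX6A1 at 211 ± 10.7 in SLNCR libraries and 223 ± 16.1 in Empty libraries (SD, n = 3 each). COX8A, at 186 ± 22.4 CPM per kb in SLNCR libraries and 226 ± 28.3 in Empty libraries (SD, n = 3 each), was next, and these 3 complex IV genes did not differ beyond their spread in Empty libraries. The iron-sulfur subunit SDHB led complex II at 100.4 ± 1.06 CPM per kb in SLNCR libraries and 104 ± 2.21 in Empty libraries (SD, n = 3 each). In complex I, NDUFB10 of the membrane arm, at 74.0 ± 5.02 CPM per kb in SLNCR libraries and 87.8 ± 6.32 in Empty libraries, was the highest in Empty libraries. NDUFA1, at 79.9 ± 0.469 CPM per kb in SLNCR libraries and 80.6 ± 5.23 in Empty libraries, was the highest in SLNCR libraries (SD, n = 3 each).

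**Figure D1:**
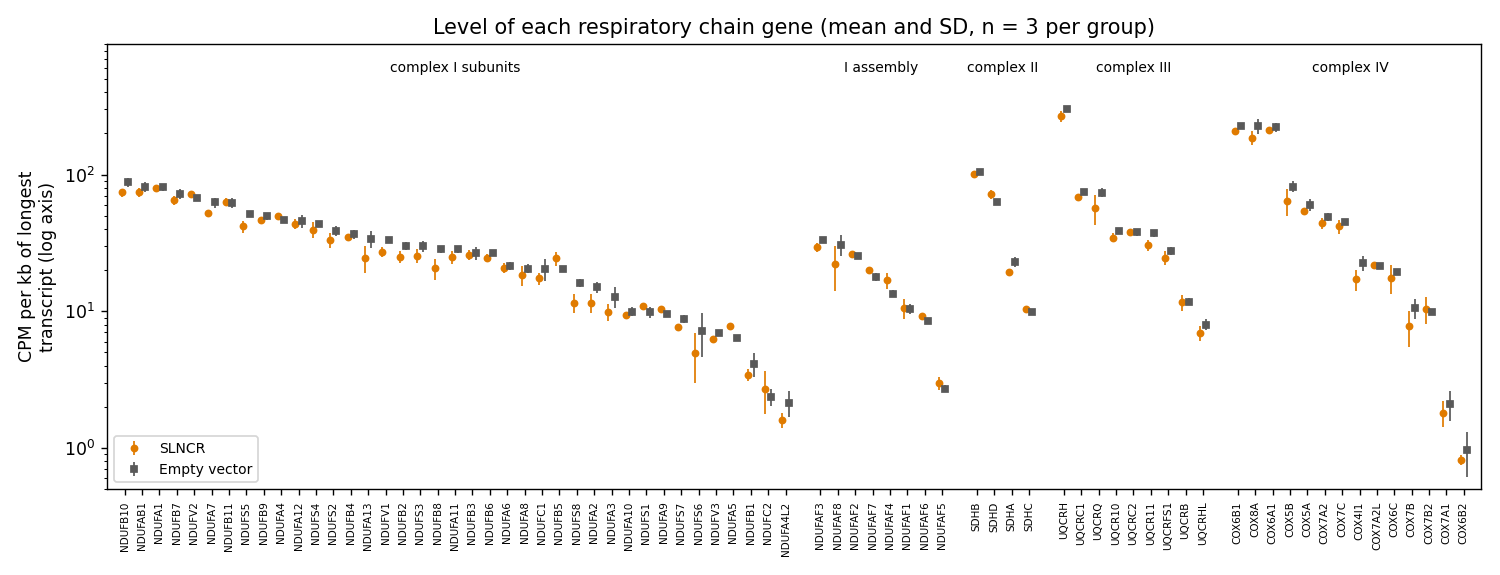
Level of each of the 74 genes in CPM per kilobase of its longest transcript (log axis), as mean and SD of 3 SLNCR libraries (orange circles) and 3 Empty libraries (grey squares), grouped by complex and ordered by the Empty level. Levels within a complex ran from 2.14 to 87.8 in Empty libraries for complex I subunits and from 0.963 to 227 for complex IV, and the SLNCR and Empty points of a gene lay close together beside that range.

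Genes of alternative isoforms were far apart in level. NDUFA4, a subunit found with complex IV that is listed under complex I by its symbol, stood at 49.6 ± 2.99 CPM per kb in SLNCR libraries and 46.5 ± 0.819 in Empty libraries (SD, n = 3 each). NDUFA4L2, its hypoxia-induced relative, stood at 1.59 ± 0.202 CPM per kb in SLNCR libraries and 2.14 ± 0.446 in Empty libraries (SD, n = 3 each), with raw CPM that overlapped between the groups. The testis isoform COX6B2 reached 0.82 ± 0.0711 CPM per kb in SLNCR libraries and 0.963 ± 0.35 in Empty libraries, far below COX6B1 (SD, n = 3 each). The muscle isoform COX7A1 was low as well, at 1.82 ± 0.404 CPM per kb in SLNCR libraries and 2.09 ± 0.511 in Empty libraries (SD, n = 3 each). The widely expressed COX7A2 stood far above it, at 43.9 ± 3.87 CPM per kb in SLNCR libraries and 48.9 ± 3.07 in Empty libraries (SD, n = 3 each). COX7A2L, which takes part in supercomplexes, reached 21.7 ± 0.827 CPM per kb in SLNCR libraries and 21.3 ± 1.02 in Empty libraries (SD, n = 3 each). None of these isoform genes passed the test below, with log2 fold changes of 0.09 for NDUFA4, -0.44 for NDUFA4L2, -0.22 for COX6B2, -0.21 for COX7A1, -0.15 for COX7A2 and 0.02 for COX7A2L (SLNCR over Empty). The low isoforms hung on single libraries: with each left out in turn, COX6B2 ranged from -0.47 to 0.07 and COX7A1 from -0.37 to -0.04. Without SLNCR library 3, COX7A1 was at -0.35 and COX7A2L at 0.00.

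UQCRH has a near-identical retrogene, UQCRHL, and their coding sequences were compared. Both are on chromosome 1, both are 276 bases long from start to stop codon, and they were 98.6% identical in the GENCODE transcripts, with 4 substitutions. Bases 151 to 240, counted from 1 at the A of the start codon, hold all of them, in capitals here, with UQCRH first in each substitution: G158A, G167A, G231A and G233A.
UQCRH: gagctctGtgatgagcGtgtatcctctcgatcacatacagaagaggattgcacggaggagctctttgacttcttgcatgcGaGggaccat
UQCRHL: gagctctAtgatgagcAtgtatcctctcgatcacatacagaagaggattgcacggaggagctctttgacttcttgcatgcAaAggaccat
Of the 227 stretches of 50 bases in the coding sequence of UQCRH, 122 also occurred in UQCRHL. Such a stretch alone cannot be assigned by sequence. Reads of 150 bases reach past it and can cover a substitution, so this share does not measure how many reads were ambiguous. That number was not counted, and both genes' values may hold reads of the other. UQCRHL stood at 6.92 ± 0.901 CPM per kb in SLNCR libraries and 7.99 ± 0.723 in Empty libraries (SD, n = 3 each). UQCRH had 182, 202 and 168 CPM in SLNCR libraries 1, 2 and 3, against 215, 203 and 200 CPM in Empty libraries 1, 2 and 3. Those ranges overlapped, with a log2 fold change of -0.16 (SLNCR over Empty, as for all fold changes here, SE 0.0643, edgeR adjusted p = 0.0916), and of -0.10 without SLNCR library 3.

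Compared with the empty vector, 3 of the 74 respiratory chain genes rose and 9 fell, which is 16.2% together, against 16.5% of the 12797 tested genes (edgeR quasi-likelihood test, Benjamini-Hochberg adjusted p below 0.05 over all tested genes). By direction, 4.05% rose and 12.2% fell, against 8.84% and 7.67% of all tested genes. The other 62 did not pass. NDUFA5, NDUFB5 and NDUFAF4 rose, and NDUFS8, NDUFV1, NDUFB8, NDUFB10, NDUFA7, NDUFS5, NDUFA13, UQCR11 and SDHA fell. All these changes were small, between -0.48 and 0.32 on the log2 scale. The groups did not overlap for 28 genes (37.8%, against 38.9% of all tested genes), 8 of them higher and 20 lower in SLNCR libraries, against 19.7% and 19.1% of all tested genes. The log2 fold change was below 0 for 55 of the 74 genes (74.3%, against 51.2% of all tested genes), with a median of -0.14 against -0.01 for all tested genes.

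The number of calls rested on single libraries. None of the 74 genes passed without SLNCR library 1, Empty library 1 or Empty library 2, where at most 2 of all tested genes passed. In those fits 23, 15 and 24 of the 74 had an unadjusted edgeR p below 0.05 (31.1%, 20.3% and 32.4%, against 28.4%, 22.9% and 26.7% of all tested genes). Leaving out SLNCR library 2 gave 4 higher and 23 lower genes, against 13.4% and 12.8% of all tested genes, or 26.1% together. Leaving out SLNCR library 3 gave 1 higher and 6 lower genes, of which 6 were among the 12 (NDUFS8, NDUFA5, NDUFV1, SDHA, NDUFB8 and NDUFA13), against 6.19% and 5.45% of all tested genes, or 11.6% together. The 12 genes kept their direction in all of these fits, which reuse libraries that picked them. With the correction for GC content given after the complexes, 0 of the 74 genes passed.

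**Figure D2:**
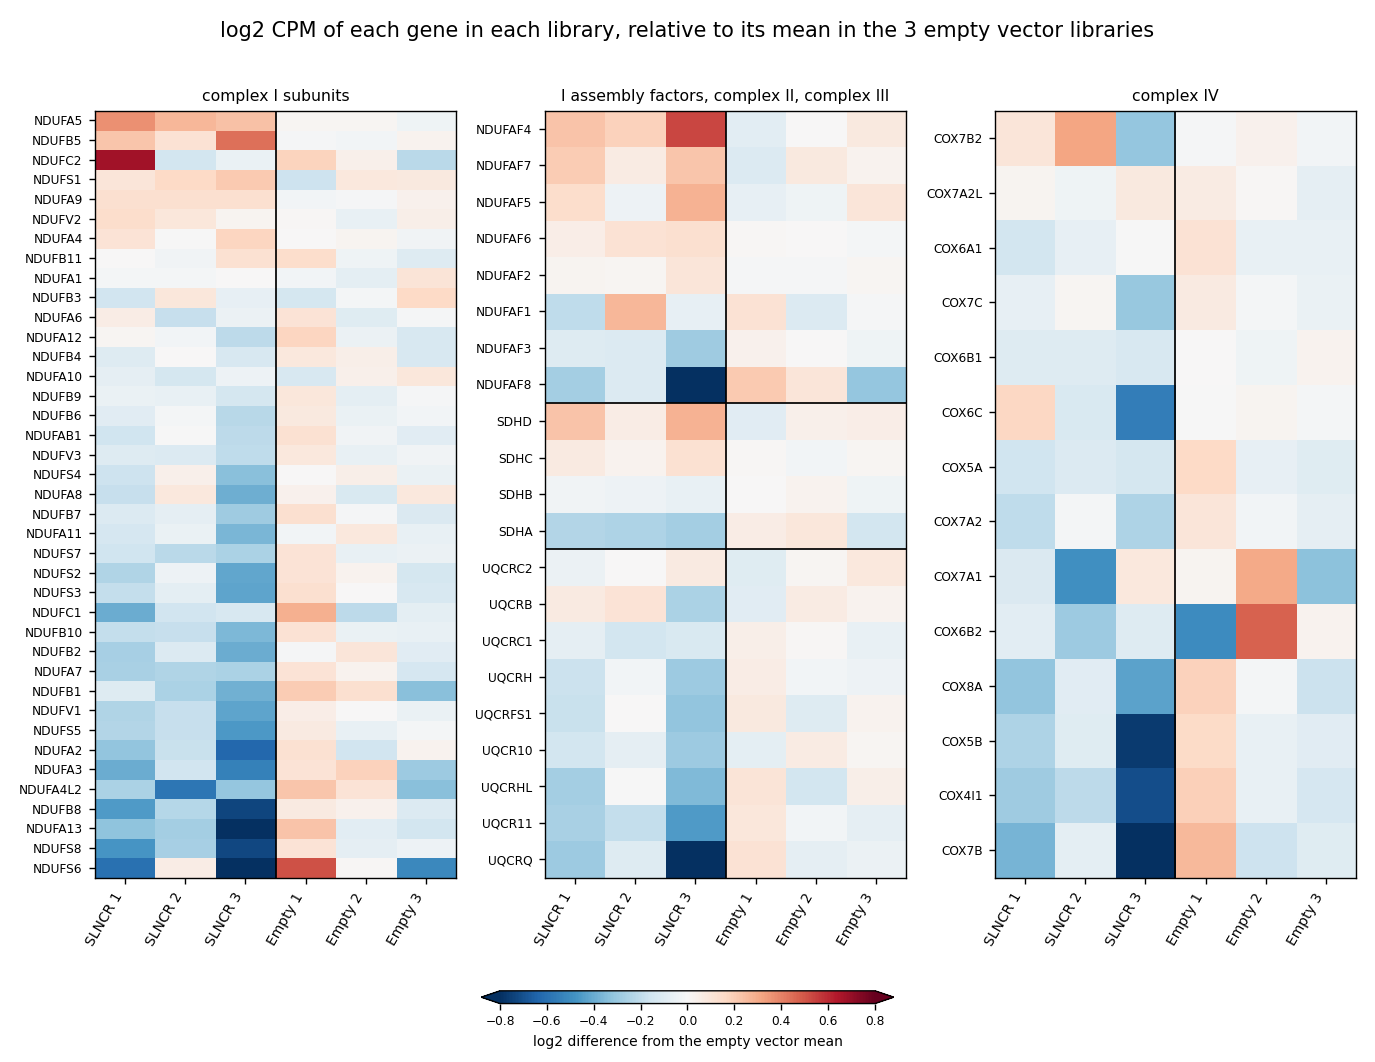
Heat map of log2 CPM of each gene in each library relative to its mean in the 3 Empty libraries, with SLNCR libraries left of Empty libraries and genes ordered by fold change within each complex. Blue covers most rows of complexes I, III and IV in SLNCR library 3 and fewer rows in SLNCR library 2; colours are capped at 0.8 in either direction, which 5 genes exceed in a library.

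Complex by complex, the medians of complexes I, III and IV lay together below 0 and those of complex II and the assembly factors lay near or above it. The median log2 fold change was -0.15 over 39 complex I subunits, 0.07 over 8 assembly factors, 0.02 over 4 complex II genes, -0.16 over 9 complex III genes and -0.15 over 14 complex IV genes. Values below 0 were found for 31 of 39 complex I subunits, 2 of 8 assembly factors, 2 of 4 complex II genes, 8 of 9 complex III genes and 12 of 14 complex IV genes. Over all tested genes that share was 51.2%. Calls were fewer. In complex I 2 subunits rose and 7 fell, 1 assembly factor rose, and 1 gene fell in each of complexes II and III. Of all tested genes 8.84% rose and 7.67% fell, and counts in the modules of complex I below are to be read beside these shares. In complex IV 0 of 14 passed. There 3 had an unadjusted edgeR p below 0.05 (34.8% of all tested genes did), and COX4I1 and COX8A passed with DESeq2. Whether complexes differ from one another was not tested. Within a library, the median of complex I subunits relative to the Empty mean was -0.15, -0.07 and -0.25 in SLNCR libraries 1, 2 and 3, against 0.09, -0.01 and -0.06 in Empty libraries 1, 2 and 3. The SLNCR medians were all below the Empty ones, although SLNCR library 2 lay close to Empty library 3. Complex IV ran alike, at -0.13, -0.09 and -0.28 in SLNCR libraries 1, 2 and 3 and 0.08, -0.02 and -0.07 in Empty libraries 1, 2 and 3. For complex III the values were -0.17, -0.02 and -0.29 in SLNCR libraries 1, 2 and 3 and 0.06, -0.02 and 0.01 in Empty libraries 1, 2 and 3, so that SLNCR library 2 equalled an Empty library to 2 decimals. Without SLNCR library 3 the medians of log2 fold change were -0.10 for complex I, -0.11 for complex III and -0.13 for complex IV.

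Complex I subunits of the matrix arm come first. In the Q module, which carries electrons to ubiquinone, NDUFS8, a subunit with iron-sulfur clusters, had 35.6, 41.0 and 29.7 CPM in SLNCR libraries 1, 2 and 3, against 53.4, 47.0 and 48.0 CPM in Empty libraries 1, 2 and 3. The groups did not overlap, and NDUFS8 fell by 0.48 on the log2 scale (SE 0.0992 and adjusted p = 0.0137 by edgeR), the smallest adjusted p of the 74 genes. NDUFA5, an accessory subunit of the same module, had 46.1, 43.1 and 42.2 CPM in SLNCR libraries 1, 2 and 3, against 36.2, 36.1 and 34.9 CPM in Empty libraries 1, 2 and 3. All SLNCR libraries were above all Empty ones for NDUFA5, by 0.29 on the log2 scale (SE 0.0761 and adjusted p = 0.0201 by edgeR), so that genes of a single module passed in opposite directions. GENCODE lists 12 pseudogenes of NDUFA5, which could share its reads. The same holds for others, as 35 of the 74 genes have a pseudogene by symbol. Among genes that passed these are NDUFS5 (6 pseudogenes), NDUFAF4 (4), SDHA (3), NDUFB5 (2), NDUFB8 (2) and NDUFB10 (2).

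In the N module, which oxidises NADH, NDUFV1, the subunit that binds FMN and NADH, was the single gene to pass of the 8 listed here. It had 70.7, 73.5 and 62.3 CPM in SLNCR libraries 1, 2 and 3, against 86.8, 83.9 and 80.6 CPM in Empty libraries 1, 2 and 3, without overlap (log2 fold change -0.28, SE 0.0713, edgeR adjusted p = 0.0185). NDUFS6, the zinc-binding subunit of this module, had the lowest log2 fold change of complex I and a low level. It gave 4.85, 7.78 and 3.56 CPM in SLNCR libraries 1, 2 and 3, against 10.7, 7.49 and 5.14 CPM in Empty libraries 1, 2 and 3. Those ranges overlapped, and the value of -0.52 did not pass (SE 0.304 and adjusted p = 0.249 by edgeR). It was -0.31 without SLNCR library 3, -0.21 without Empty library 1 and -0.88 without SLNCR library 2.

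Among the 13 NDUFB and NDUFC subunits of the membrane arm, 1 rose and 2 fell. NDUFB8 had 17.1, 20.0 and 14.0 CPM in SLNCR libraries 1, 2 and 3, against 24.7, 24.0 and 21.8 CPM in Empty libraries 1, 2 and 3. All SLNCR values of NDUFB8, whose protein is widely used as a marker of assembled complex I, were below all Empty values (log2 fold change -0.46, SE 0.118, edgeR adjusted p = 0.0200). NDUFB10 had 73.5, 73.8 and 65.3 CPM in SLNCR libraries 1, 2 and 3, against 91.1, 80.7 and 80.4 CPM in Empty libraries 1, 2 and 3 (log2 fold change -0.25, SE 0.0725, edgeR adjusted p = 0.0315). NDUFB5 went the other way, at 95.5, 88.7 and 111 CPM in SLNCR libraries 1, 2 and 3, against 81.3, 80.7 and 83.6 CPM in Empty libraries 1, 2 and 3 (log2 fold change 0.26, SE 0.0756, edgeR adjusted p = 0.0283). SLNCR library 3, the lowest for most of the chain, was the highest for NDUFB5. Without that library NDUFB8 passed (-0.34, edgeR adjusted p = 0.0333), and NDUFB10 (-0.19, edgeR adjusted p = 0.0577) and NDUFB5 (0.17, edgeR adjusted p = 0.0694) did not.

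Of the 13 remaining complex I subunits, which were not sorted by arm, 3 fell. NDUFA13, also known as GRIM-19, had 31.6, 32.7 and 21.3 CPM in SLNCR libraries 1, 2 and 3, against 46.2, 37.2 and 35.7 CPM in Empty libraries 1, 2 and 3 (log2 fold change -0.47, SE 0.147, edgeR adjusted p = 0.0494). NDUFA7 had 31.3, 31.7 and 31.4 CPM in SLNCR libraries 1, 2 and 3, against 40.4, 38.2 and 34.1 CPM in Empty libraries 1, 2 and 3 (log2 fold change -0.26, SE 0.084, edgeR adjusted p = 0.0450). NDUFS5, an accessory subunit of the membrane arm, had 23.8, 24.6 and 20.3 CPM in SLNCR libraries 1, 2 and 3, against 29.4, 26.9 and 27.7 CPM in Empty libraries 1, 2 and 3 (log2 fold change -0.29, SE 0.096, edgeR adjusted p = 0.0489). In all 3 the groups did not overlap, with SLNCR below Empty, and their adjusted p-values lay just under the threshold. Without SLNCR library 3 NDUFA13 passed (-0.31, edgeR adjusted p = 0.0282), and NDUFA7 (-0.26, edgeR adjusted p = 0.0541) and NDUFS5 (-0.21, edgeR adjusted p = 0.144) did not.

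NDUFAF4, which acts with NDUFAF3 early in complex I assembly, was the assembly factor that passed. It had 37.8, 36.6 and 46.7 CPM in SLNCR libraries 1, 2 and 3, against 30.4, 32.4 and 34.0 CPM in Empty libraries 1, 2 and 3 (log2 fold change 0.32, SE 0.096, edgeR adjusted p = 0.0336), the highest value among the 74 genes. Without SLNCR library 3, its highest library, the value was 0.21 and did not pass (edgeR adjusted p = 0.108). Its partner NDUFAF3 had a log2 fold change of -0.16 without overlap (SE 0.0706 and adjusted p = 0.110 by edgeR). NDUFAF8 spread most. It gave 18.6, 20.9 and 9.57 CPM in SLNCR libraries 1, 2 and 3 and 26.0, 24.1 and 18.2 CPM in Empty libraries 1, 2 and 3, a log2 fold change of -0.46 that did not pass (SE 0.263 and adjusted p = 0.251 by edgeR) and was -0.21 without SLNCR library 3.

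**Figure D3:**
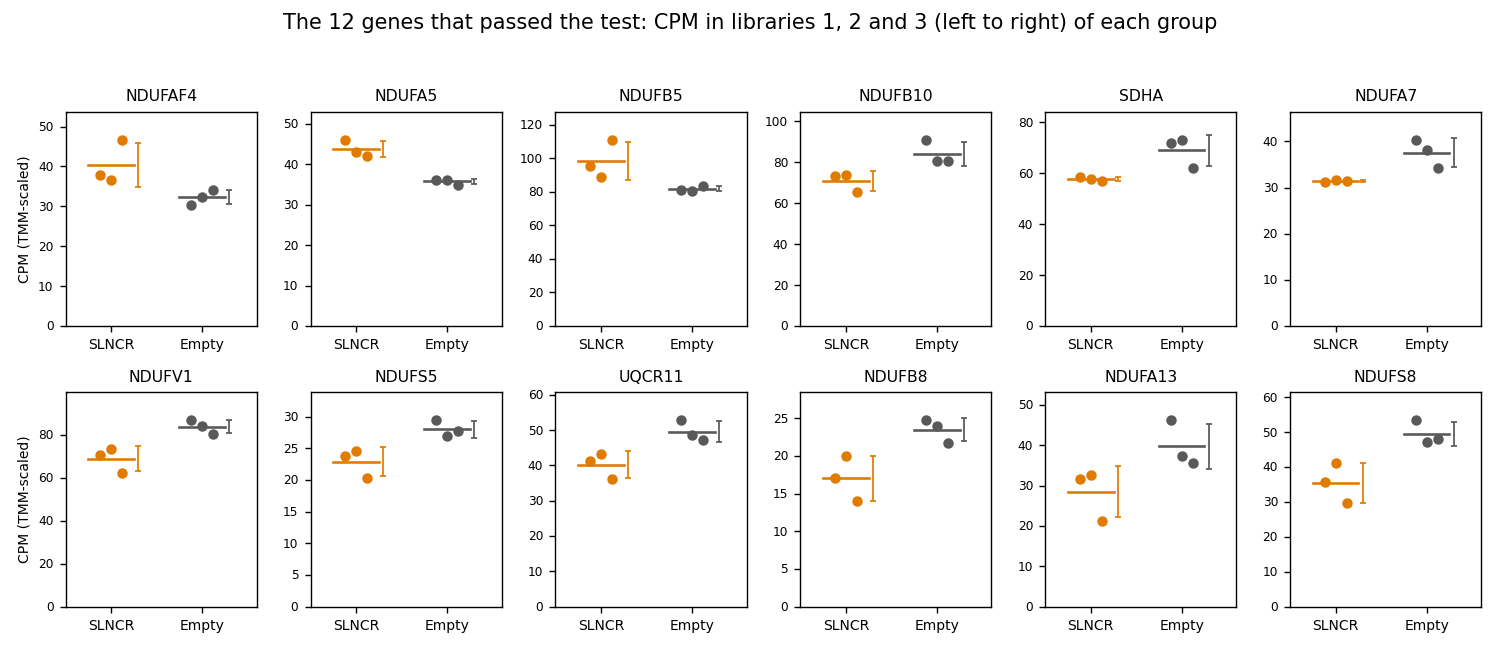
CPM of the 12 genes that passed the test in each SLNCR library (orange, left) and each Empty library (grey, right), with the group mean as a line and the SD (n = 3) as a bar, on axes that start at 0. The groups do not overlap in any panel, and the distance between group means is small beside the level itself, as in NDUFB5 (98.5 CPM in SLNCR and 81.9 CPM in Empty libraries).

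Complex II, succinate dehydrogenase, also works in the citric acid cycle, and its subunits are tumour suppressors in paraganglioma. SDHA, the flavoprotein that oxidises succinate, had 58.4, 57.9 and 57.0 CPM in SLNCR libraries 1, 2 and 3, against 71.7, 73.1 and 61.9 CPM in Empty libraries 1, 2 and 3. SDHA fell by 0.26 on the log2 scale without overlap (SE 0.0736 and adjusted p = 0.0287 by edgeR). SDHB had 117, 116 and 115 CPM in SLNCR libraries 1, 2 and 3, against 119.9, 122 and 117 CPM in Empty libraries 1, 2 and 3, with a log2 fold change of -0.05 (SE 0.056 and adjusted p = 0.589 by edgeR). The membrane anchor SDHC had 141, 137 and 146 CPM in SLNCR libraries 1, 2 and 3, against 135, 132 and 135 CPM in Empty libraries 1, 2 and 3, and its log2 fold change of 0.08 (0.05 without SLNCR library 3) did not pass although the groups did not overlap (SE 0.0551 and adjusted p = 0.344 by edgeR). SDHD, the other anchor, had 106, 94.8 and 110.2 CPM in SLNCR libraries 1, 2 and 3, against 85.5, 93.4 and 94.2 CPM in Empty libraries 1, 2 and 3 (log2 fold change 0.19, SE 0.0692, edgeR adjusted p = 0.0662). The 4 subunits of this complex, which join in equal numbers, thus had log2 fold changes on both sides of 0.

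In complex III UQCR11, a small accessory subunit, fell. It had 41.3, 43.3 and 36.1 CPM in SLNCR libraries 1, 2 and 3, against 52.8, 48.7 and 47.1 CPM in Empty libraries 1, 2 and 3 (log2 fold change -0.30, SE 0.083, edgeR adjusted p = 0.0260). Without SLNCR library 3 the value was -0.23 and did not pass (edgeR adjusted p = 0.0548). The core proteins UQCRC1 and UQCRC2 stood at log2 fold changes of -0.11 and 0.01 and did not pass (SE 0.0563 and 0.0649, edgeR adjusted p = 0.158 and 0.914). UQCRC2 was at -0.02 without SLNCR library 3. UQCRQ had the lowest value of the complex. Its 52.6, 60.1 and 36.5 CPM in SLNCR libraries 1, 2 and 3 lay below the 69.9, 61.4 and 62.4 CPM in Empty libraries 1, 2 and 3, and the log2 fold change of -0.37 did not pass (SE 0.152 and adjusted p = 0.118 by edgeR) and was -0.20 without SLNCR library 3.

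Complex IV, cytochrome c oxidase, had no gene past the threshold, and its median was lowest in SLNCR library 3. COX4I1, the ubiquitous form of the regulatory subunit, had 72.2, 76.1 and 54.0 CPM in SLNCR libraries 1, 2 and 3, against 101, 84.7 and 80.3 CPM in Empty libraries 1, 2 and 3. The groups of COX4I1 did not overlap, and its adjusted p missed the threshold (log2 fold change -0.39, SE 0.123, edgeR adjusted p = 0.0545), though it passed without SLNCR library 3 (-0.26, edgeR adjusted p = 0.0197). COX8A had 91.5, 107 and 84.7 CPM in SLNCR libraries 1, 2 and 3, against 129.8, 113 and 101 CPM in Empty libraries 1, 2 and 3 (log2 fold change -0.28, SE 0.0952, edgeR adjusted p = 0.0590), where a SLNCR value lay above an Empty one, and the value was -0.18 without Empty library 1. COX7B showed the lowest log2 fold change of the complex, -0.43 (SE 0.199 and adjusted p = 0.159 by edgeR), and SLNCR library 3 gave 13.2 CPM beside 20.1 and 24.6 CPM in SLNCR libraries 1 and 2 and 31.1, 23.1 and 24.3 CPM in Empty libraries 1, 2 and 3. Without SLNCR library 3 COX7B was at -0.23 and no longer the lowest, and without Empty library 1 it was at -0.28. The most abundant genes, COX6A1 and COX6B1, had log2 fold changes of -0.08 and -0.11 (SE 0.0624 and 0.0537, edgeR adjusted p = 0.399 and 0.155). COX6A1 had 153.6, 162.5 and 170.0 CPM in SLNCR libraries 1, 2 and 3, against 185, 163 and 164 CPM in Empty libraries 1, 2 and 3, with overlap. For COX6B1 the values were 141, 141 and 138 CPM in SLNCR libraries 1, 2 and 3, against 152, 148 and 154 CPM in Empty libraries 1, 2 and 3, without it.

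GC content moved with these fold changes. Across the 74 genes, Pearson's r between log2 fold change and the GC content of the longest transcript was -0.607, and across all tested genes it was -0.637; genes of the same libraries are not independent replicates, and r is given as a description. The 37 genes below the median GC content of tested genes (47.9%) included the 3 that rose and 0 that fell, with a median log2 fold change of -0.04. The 37 at or above it included 0 that rose and the 9 that fell, with a median of -0.23. The same split was not counted over all tested genes. As r was of like size there, the split cannot be read as particular to these 74 genes. The trend with GC content was removed as a loess curve of each library's deviation. This takes out any difference between the groups that runs with GC content, whatever its source. The slope over all tested genes was thus gone by construction (r of -0.003). After the correction r over the 74 genes was 0.125 and 0 of them passed, against 0.0156% of all tested genes. Of the 74, 23 had an unadjusted edgeR p below 0.05, 1 of them higher and 22 lower, against 15.1% of all tested genes. DESeq2 was not run with this correction. NDUFS8 then had a log2 fold change of -0.31 (edgeR adjusted p = 0.0939), NDUFB8 -0.36 (0.117), NDUFS5 -0.27 (0.156), SDHA -0.22 (0.120) and UQCR11 -0.19 (0.194). The others of the 12 came closer to 0, at -0.24 for NDUFA13 (edgeR adjusted p = 0.294), -0.12 for NDUFA7 (0.469), -0.09 for NDUFV1 (0.463), -0.06 for NDUFB10 (0.635), 0.09 for NDUFB5 (0.454), 0.09 for NDUFAF4 (0.611) and 0.05 for NDUFA5 (0.826).

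The medians by complex changed less than the calls. With the GC correction they were -0.12 for complex I subunits, 0.02 for assembly factors, -0.03 for complex II, -0.19 for complex III and -0.18 for complex IV. Again 55 of the 74 genes lay below 0, against 6333 of the 12797 tested genes. These transcripts are also short, with a median length of 1377 bases against 3633 for all tested genes, and r between log2 fold change and log10 length was 0.386 across the 74 genes. With GC content and length corrected together, the medians were -0.09, 0.04, -0.01, -0.18 and -0.15 in the same order, and 0 of the 74 genes passed, against 0.125% of all tested genes, with 18 at an unadjusted edgeR p below 0.05, against 15.1% of all tested genes. With the GC correction and without SLNCR library 3, complexes I, III and IV had medians of -0.08, -0.11 and -0.12.

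**Figure D4:**
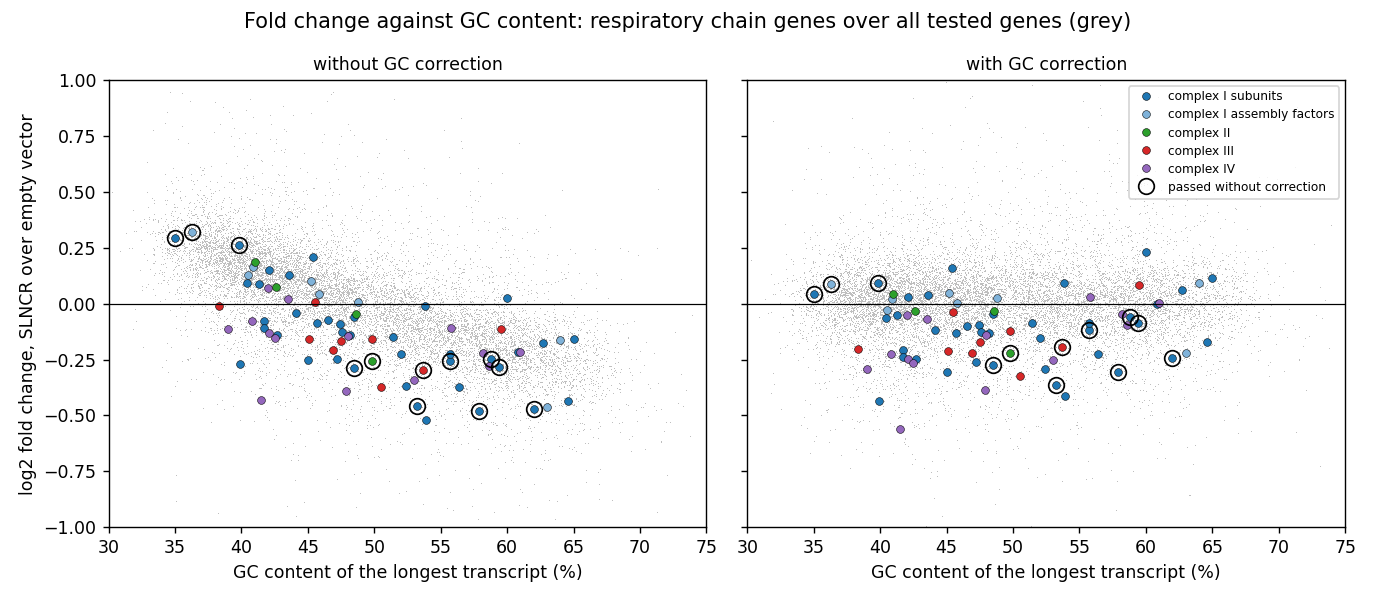
Log2 fold change (SLNCR over Empty) against GC content of the longest transcript for the respiratory chain genes (coloured by complex) over all tested genes (grey points), without and with the GC correction, with rings on the 12 genes that passed without it. The downward slope of the left panel, with r of -0.607 over the 74 genes, is absent on the right, where the correction removed the trend by construction. The axis from -1 to 1 leaves out 25 and 17 grey genes.

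**Figure D5:**
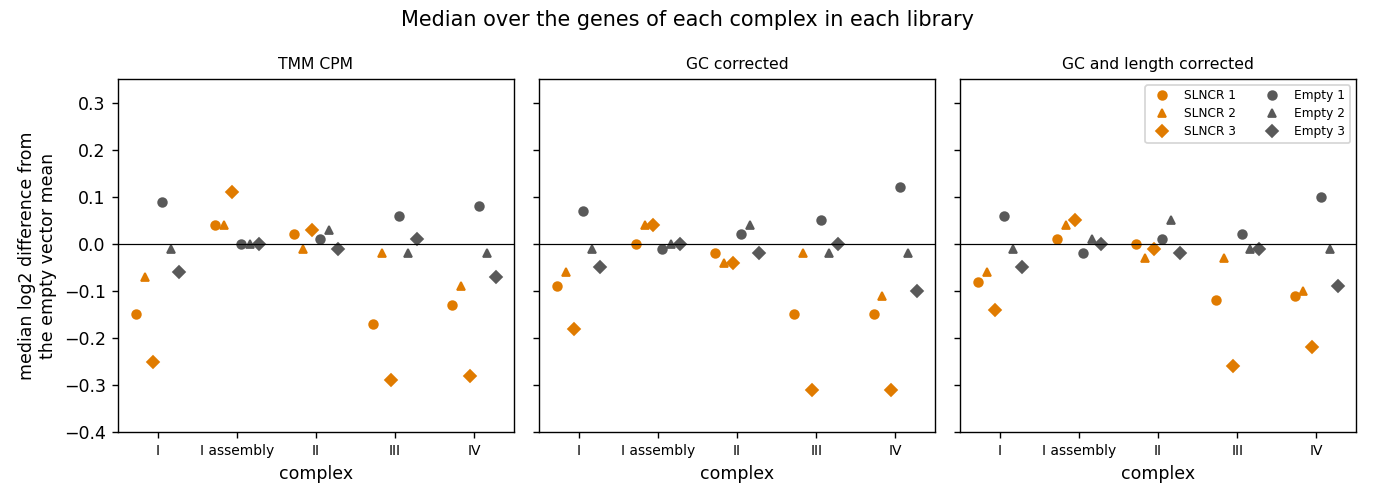
Median log2 difference from the Empty mean over the genes of each complex in each SLNCR library (orange) and Empty library (grey), for TMM-scaled CPM, after GC correction and after GC and length correction. SLNCR library 3 gives the lowest median of complexes I, III and IV in every panel, at -0.25, -0.29 and -0.28 without correction, and complex II stays near 0.

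Promoter sequences were read because NRF1, the ETS factors GABPA and GABPB1, and YY1 are textbook regulators of these genes. RefSeq windows (GRCh38.p14, from 250 bases before to 50 after a gene's start) were matched for 61 of the 74 genes and searched on both strands for the NRF1 consensus, a palindrome with a free base, and for CCGGAAGT (ETS) and AANATGGCG (YY1). The NRF1 letters were found in 13 genes (21.3%, against 9.7% of 15843 coding genes with a window), the ETS letters in 8 (13.1%, against 7.0%) and the YY1 letters in 17 (27.9%, against 5.6%). A match is a description of the letters and not a binding site. Of the genes that fell, SDHA and UQCR11 held the NRF1 letters, NDUFA13 and UQCR11 the ETS letters, and NDUFA7, NDUFB8 and NDUFS8 the YY1 letters. For SDHA 4 matches stood 49 bases apart just upstream of the RefSeq start. UQCR11 held 2, on the other strand and thus shown as the reverse complement, and SDHD, which did not pass, held 1. These are printed 5′ to 3′ on the gene's strand, with the NRF1 letters in capitals, at chr5:218150-218319 (plus strand), chr19:1605463-1605522 (minus) and chr11:112086733-112086812 (plus).
SDHA: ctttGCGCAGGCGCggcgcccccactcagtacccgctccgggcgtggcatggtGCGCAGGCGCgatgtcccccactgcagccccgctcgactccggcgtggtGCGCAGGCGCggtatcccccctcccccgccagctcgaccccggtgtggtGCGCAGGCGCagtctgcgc
UQCR11: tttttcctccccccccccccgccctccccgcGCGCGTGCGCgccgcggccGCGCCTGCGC
SDHD: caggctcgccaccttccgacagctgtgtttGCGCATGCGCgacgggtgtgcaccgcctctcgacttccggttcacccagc

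The YY1 letters lay within the 50 bases after the start in 16 of the 17 genes that held them. Where they are read on the gene's strand, they contain ATG, which can be the start codon itself. Shown with those letters in capitals are 3 genes that fell, NDUFB8 (chr10:100529839-100529868, minus strand), NDUFA7 (chr19:8321343-8321372, minus) and NDUFS8 (chr11:68030486-68030515, plus), and 2 that did not pass, SDHB (chr1:17054000-17054029, minus) and NDUFV2 (chr18:9102719-9102748, plus). NDUFS8 is the one with the match before the start. The match of NDUFV2 is on the other strand, so its capitals are the reverse complement of the YY1 letters.
NDUFB8: acgtgaagaaggtgAAGATGGCGgtggcca
NDUFA7: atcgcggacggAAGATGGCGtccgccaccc
NDUFS8: tggcctccccaaaccAACATGGCGgccccc
SDHB: aggagccAAGATGGCGgcggtggtcgccct
NDUFV2: gggaaggtgaacagtgtggccCGCCATGTT
SDHB, with a log2 fold change of -0.05, and NDUFB8, with -0.46, share the 9 capital letters, so the same letters were found in genes with and without a call.

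The regulators themselves were mixed. Of 15 listed, 4 rose and 1 fell, where 8.84% of all tested genes rose and 7.67% fell, the shares against which the lists that follow are also to be read. GABPA rose by 0.29 on the log2 scale (SE 0.0737 and adjusted p = 0.0185 by edgeR), and so did its partner GABPB1 (0.29, SE 0.0755, edgeR adjusted p = 0.0209), whose counts may hold reads of its antisense gene. TFAM, which packages mitochondrial DNA, rose by 0.25 (SE 0.0621 and adjusted p = 0.0176 by edgeR), and MTERF1, a mitochondrial transcription termination factor, by 0.43 (SE 0.0973 and adjusted p = 0.0145 by edgeR). POLRMT, the mitochondrial RNA polymerase, fell by 0.26 (SE 0.0765 and adjusted p = 0.0330 by edgeR), or by 0.18 without SLNCR library 3, where it did not pass (edgeR adjusted p = 0.0633). The 10 regulators that did not pass included NRF1 (-0.15, edgeR adjusted p = 0.351) and YY1 (0.05, edgeR adjusted p = 0.623). PPARGC1A (0.27, edgeR adjusted p = 0.379), at only 3.29 to 6.12 CPM over the 6 libraries, was another. Of 7 tested electron carriers and dehydrogenases that feed the chain, 2 rose and 1 fell. Cytochrome c itself, CYCS, had 260.3, 267 and 279.5 CPM in SLNCR libraries 1, 2 and 3, against 216, 225 and 235 CPM in Empty libraries 1, 2 and 3 (log2 fold change 0.25, SE 0.0533, edgeR adjusted p = 0.0137), and CYC1, the cytochrome of complex III, fell by 0.21 on the log2 scale (SE 0.0555 and adjusted p = 0.0202 by edgeR). Of 13 genes of coenzyme Q synthesis 0 passed, and of 13 genes of the citric acid cycle 2 fell, IDH3B (-0.25) and IDH3G (-0.23), which overlaps SSR4. After the GC correction no gene named in this paragraph passed, with edgeR adjusted p-values from 0.149 for CYCS to 0.962 for IDH3G. The log2 fold changes were then 0.06 for GABPA, 0.10 for GABPB1, 0.06 for TFAM, 0.21 for MTERF1, 0.12 for CYCS, -0.13 for IDH3B and -0.01 for IDH3G, and those of POLRMT (0.04) and CYC1 (0.06) changed sign.

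Among 40 tested assembly factors outside the symbol rule, 5 rose and 4 fell, also beside 8.84% and 7.67% of all tested genes, and the lowest values were those of COX16 and COX17. COX17, the copper chaperone of complex IV, had 36, 33 and 15 counts in SLNCR libraries 1, 2 and 3, against 77, 56 and 48 counts in Empty libraries 1, 2 and 3. The groups did not overlap, and COX17 fell by 1.19 on the log2 scale (SE 0.236 and adjusted p = 0.0137 by edgeR), or by 0.95 without SLNCR library 3. COX16, which helps insert copper, was lower too, at 6, 9 and 4 counts in SLNCR libraries 1, 2 and 3, against 16, 16 and 13 counts in Empty libraries 1, 2 and 3 (log2 fold change -1.31, SE 0.374, edgeR adjusted p = 0.0279), with few counts and with exons shared with the readthrough gene SYNJ2BP-COX16. COX16 did not pass without SLNCR library 3 (-1.14, edgeR adjusted p = 0.0794). SURF1, a complex IV assembly factor mutated in Leigh syndrome, whose gene overlaps SURF2, fell by 0.48 on the log2 scale (SE 0.131 and adjusted p = 0.0236 by edgeR). TMEM126B, an assembly factor of the complex I membrane arm, rose by 0.42 (SE 0.0952 and adjusted p = 0.0147 by edgeR), and SDHAF3, which helps mature SDHB, by 0.38 (SE 0.0962 and adjusted p = 0.0185 by edgeR). None of these assembly factors passed with the GC correction, where the log2 fold change was -1.29 for COX17 (edgeR adjusted p = 0.0539), -1.47 for COX16 (0.0952), -0.32 for SURF1 (0.229), 0.22 for TMEM126B (0.168) and 0.29 for SDHAF3 (0.143).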

How the data were processed

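The deposited file holds raw counts per gene, whole numbers as the authors made them; the tools named, with no role, in the submitters' processing notes are STAR, cutadapt and DESeq2, and the build is GRCh38. The sources used here do not give the read counter, annotation or strand setting. The 1857 rows that name no gene (2.15% to 2.59% of counts) and 63 rows that repeat the row of another gene were left out. Identifiers were matched to GENCODE release 29. Counts were tested with edgeR 4.0.16 in R 4.3.3 (TMM, filterByExpr, robust quasi-likelihood F-test, two-sided, Benjamini-Hochberg over all tested genes, threshold 0.05), with no covariate, and the biological coefficient of variation was 5.65%. Libraries of a group differed by more than sampling noise (chi-square per degree of freedom 1.77 to 6.81). The GC correction removed a loess curve (span 0.5, degree 2) per library. Log2 CPM used a prior count of 2. The fitting code was also run on simulated counts with a constant dispersion and, in part, a GC slope alike in all SLNCR libraries. Those counts lack the differences between libraries of a group seen here, so that run cannot vouch for these fits.

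The genes and all lists were chosen with earlier results of these data known. Named are genes past the threshold, the 2 highest levels and the extreme fold changes of each complex, all SDH subunits, isoform genes, and up to 4 called genes of each other list. POLRMT, COX16, NRF1, YY1 and PPARGC1A were added after their values were seen. Alternatives were other size factors, filters, DESeq2 1.42.0, a replicate block, GC and length corrections, other thresholds and leaving out each library. GC values from principal transcripts, levels per kilobase of these, and the GC correction without SLNCR library 3 were added after the data were seen.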

Additional observations from a re-analysis of the deposited data

How the results depend on the processing

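The 12 genes that passed kept their direction in all 18 alternative fits. These fits reuse the libraries that picked the 12 genes, so a kept sign is no separate support. The value nearest 0 was 0.02 for NDUFAF4 and -0.0 for NDUFB10. Against 3 higher and 9 lower genes, there were 0 and 0 with the GC correction, the GC and length correction, both of these on principal transcripts, and the GC correction without SLNCR library 3, and 0 and 0 at an adjusted p of 0.01. No filter on low counts gave 4 higher and 17 lower genes, against 1669 and 1235 of 18318 tested genes. An adjusted p of 0.10 gave 4 higher and 18 lower genes. Over all tested genes, against 1131 higher and 981 lower, the GC correction gave 1 and 1, GC and length 6 and 10, the same on principal transcripts 1 and 1 and then 5 and 7, the GC correction without SLNCR library 3 45 and 56, an adjusted p of 0.01 2 and 0, and of 0.10 1838 and 1804. Leaving out each library in turn gave 0 to 4 higher and 0 to 23 lower respiratory chain genes, and 1 to 1722 higher and 0 to 1644 lower of all tested genes. DESeq2 called 12 of the 74, 10 of them among the 12, against 1681 of 12797 tested genes. The median of assembly factors, 0.07, was 0.02 with the GC correction, 0.04 with GC and length, 0.00 and 0.03 on principal transcripts, 0.02 with the GC correction without SLNCR library 3, and 0.05 to 0.12 when each library was left out. For complex II, 0.02, these were -0.03, -0.01, -0.04, -0.02 and -0.03. Medians of complexes I, III and IV stayed below 0 in all fits run.

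What a replicate number shares is not given, and whether the numbers pair the libraries was not tested. Same-numbered libraries correlated at 0.0414, 0.0217 and 0.195 in their deviations. For SLNCR libraries 1 and 3 these were the highest values with any Empty library, while SLNCR library 2 correlated best with Empty library 1 (0.143). With the replicate block 5 genes were higher and 22 lower, against 1772 and 1751 of all tested genes (13.8% and 13.7%). The block with the GC correction gave 1 and 6, against 161 and 246, with medians of 0.02 for assembly factors and -0.03 for complex II.

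Of 645 comparisons of 36 named genes with an alternative, 432 kept direction and call, 118 lost the call, 29 gained it and 66 changed sign, none of the last in a gene that passed. In the order GC correction, GC and length, block with GC, GC and then GC and length on principal transcripts, and GC without SLNCR library 3, log2 fold changes were 0.03, 0.08, 0.03, 0.02, 0.07 and 0.01 for COX6B1 (reported -0.11), 0.09, 0.14, 0.10, 0.08, 0.13 and 0.07 for NDUFA1 (-0.01), -0.07, -0.06, -0.06, -0.08, -0.08 and -0.07 for NDUFA4 (0.09), 0.09, 0.10, 0.10, 0.09, 0.09 and 0.10 for NDUFAF3 (-0.16), -0.03, -0.02, -0.03, -0.04, -0.02 and -0.03 for SDHC (0.08), 0.08, 0.09, 0.08, 0.07, 0.07 and 0.05 for UQCRC1 (-0.11), -0.04, -0.04, -0.03, -0.05, -0.06 and -0.06 for UQCRC2 (0.01), and -0.07, -0.08, -0.07, -0.08, -0.09 and -0.08 for COX7A2L (0.02). On principal transcripts COX6A1 was at 0.01 with GC and 0.08 with GC and length. COX7A1 was at 0.00 with GC, 0.05 with GC and length, 0.00 with block and GC, and 0.04 with GC and length on principal transcripts, and COX7B2 at -0.05 with GC, -0.06 with block and GC and -0.06 with GC on principal transcripts. NDUFA1 was at 0.00 with no filter and UQCRC2 at 0.00 with upper quartile factors. With each library left out in turn, COX6B2 ranged from -0.47 to 0.07 (without Empty 2), COX7B2 from -0.08 (without SLNCR 2) to 0.22, COX7A2L from -0.01 (without Empty 3) to 0.05, NDUFA1 from -0.05 to 0.04 (without Empty 3), and UQCRC2 from -0.04 (without Empty 1) to 0.05. Apart from the settings' own construction, the cause was not tested.

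Per kilobase of the principal transcript, median Empty levels were 35.0 for complex I, 46.1 for complex II and 47.0 for complex IV, and NDUFB9 led complex I at 183 in SLNCR and 195 in Empty libraries. At 14.3 to 1892.3 counts a gene, small changes of the lowest genes could not be resolved.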
